A study of Mus musculus with 4 samples.

Results

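Genes by which primordial germ cells are recognised were read from 4 two-colour oligonucleotide arrays of mouse embryos at 10.5 days post coitum (dpc), on which metanephric mesenchyme (MM) was set against intermediate mesoderm (IM). The genes were Pou5f1, Dppa3, Dazl, Ddx4, Kit, Kitl, Alpl, Ifitm1, Ifitm2 and Ifitm3, and every probe carrying one of these 10 symbols was taken, whatever its values. This gave 10 of the 15096 genes named on the array, by 11 of its 22702 probes, 2 of them for Kitl. MM is the mesenchyme from which the nephrons of the permanent kidney form. IM is the mesodermal strip that gives rise to the urogenital system. Per the labels, both tissues were dissected from embryos of both sexes, the RNA was amplified, and each array held the 2 tissues directly against each other. MM was in channel 1 on arrays 1 and 2 and in channel 2 on arrays 3 and 4, where the labels read "Intermediate Mesenchyme" and "Metanephric mesoderm". These were taken as the same tissues, and no strain, litter or pooling is given.

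Primordial germ cells are the embryonic precursors of eggs and sperm. In the mouse they arise at the base of the allantois, travel through the hindgut wall and its mesentery, and settle in the genital ridges, which form along the mesonephros from intermediate mesoderm. They keep pluripotency factors such as Pou5f1, carry the receptor Kit, are stained by alkaline phosphatase, and switch on the RNA regulators Dazl and Ddx4 once they reach the gonad. Kit's ligand, Kitl, is made by the somatic cells along their route.

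All values are log2 ratios of MM over IM, so a negative value means lower in MM. The labels make this direction likely without settling it, since they do not tie a dye to either channel. No ratio in the table was below 0.01 (log2 -6.64), and values at that floor are bounds rather than measurements. Arrays 1 and 2 held 21509 and 21599 values, 16 and 8 of them at the floor, and arrays 3 and 4 held 15812 and 16242 values, 1672 and 1805 of them at the floor. Over the 13191 probes with 4 values above the floor, Pearson's r across probes, which are no replicates, came to 0.836 for arrays 1 and 2, 0.912 for arrays 3 and 4, and 0.113 to 0.274 for arrays of opposite orientation. Of 5 nephron progenitor markers, Six2 (3.00 ± 0.63, SD, n = 4), Gdnf (1.92 ± 0.13) and Osr1 (0.44 ± 0.17) were higher in MM and Wt1 was lower (-1.57 ± 0.02), each past the limma threshold of 0.05, while Eya1 read 0.35 ± 0.72 (adjusted p = 0.280). Whether the arrays shared RNA extracts is not stated in the labels. With a term for channel orientation, the p-values cover only the spread between arrays of the same orientation. Without that term they cover the spread among all 4 arrays. Neither kind covers anything beyond these arrays, and the spread may be technical.

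The germ cell genes did not move as 1 group. Of the 5 probes with a value on every array, Kit, Ifitm1, Ifitm2 and Ifitm3 were lower in MM and Alpl was higher. In limma with a term for channel orientation, 5 of 5 passed an adjusted p of 0.05, where 61.9% of all 14184 tested probes did so. The 4 lower calls stood against 38.1% of probes called lower, and the 1 higher call against 23.8% called higher. In the fit without the orientation term as well, 4 of 5 passed (Kit, Ifitm1, Ifitm3 and Alpl), against 28% of all tested probes. The 3 lower calls in both fits stood against 14.4% of probes and the 1 higher call against 13.6%. With a background this large and 5 probes, these counts do not set the germ cell genes apart, and the sizes below carry the description. The arrays compare tissue RNA, so fewer germ cells in a tissue and less RNA per cell cannot be told apart.

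The other 6 probes lacked values. Pou5f1 and the first Kitl probe had values on arrays 1 and 2 alone. Dppa3, Dazl, Ddx4 and the second Kitl probe had values on arrays 1 and 2, the floor on array 3 and no value on array 4. None of these 6 could enter the fit over 4 arrays. The pattern with the floor on array 3 and none on array 4 was shared by 717 probes of the table (3.16%). Of those 717, 62.9% were above 0 on both arrays 1 and 2 and 18.5% were below 0 on both, so a floor value on array 3 came with either sign on the other arrays. Probes without values on arrays 3 and 4 were also less repeatable, with a median gap between arrays 1 and 2 of 0.48 log2 units over 4250 probes, against 0.10 over the 13191 complete ones.

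**Figure D1:**
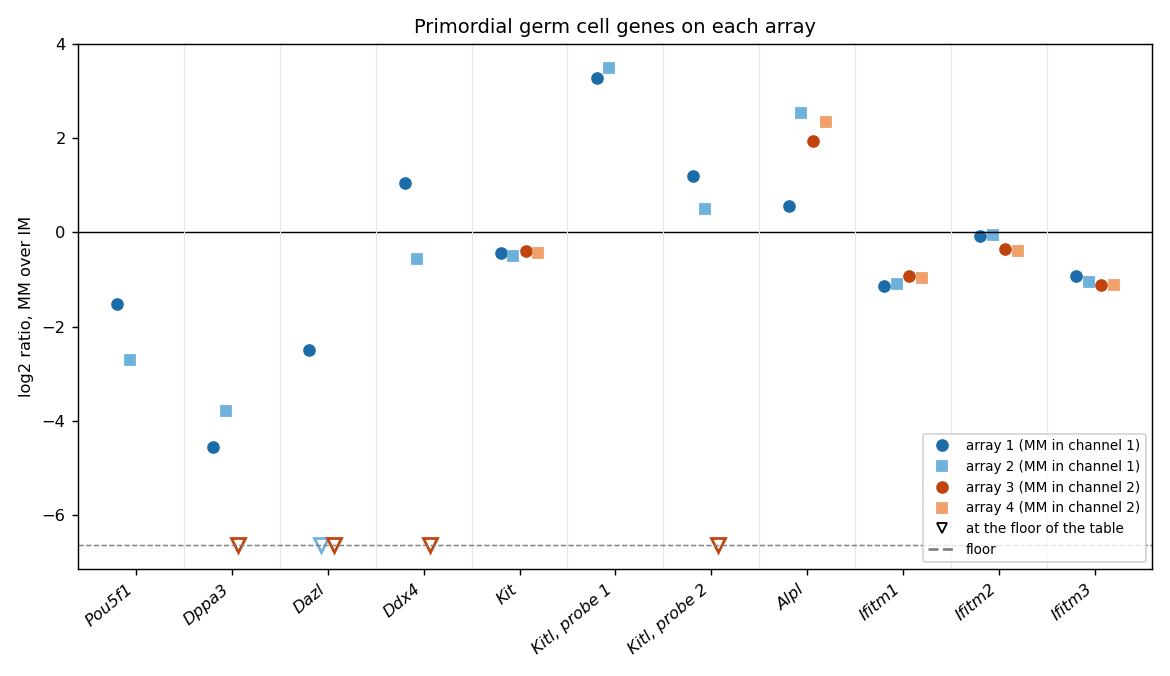
Log2 ratio of MM over IM (y axis) for each of the 11 probes (x axis), with 1 point per array, blue for arrays 1 and 2 and orange for arrays 3 and 4. Open triangles on the dashed line are values at the floor of -6.64, and an array without a point had no value. Kit, Ifitm1 and Ifitm3 lie close together below 0 on 4 arrays, while Dppa3 and Pou5f1 lie lower but have measured values on arrays 1 and 2 alone.

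Pou5f1 and Dppa3 were below 0 on both arrays that measured them. Pou5f1, the POU-domain transcription factor that keeps germ cells and pluripotent cells undifferentiated, read -1.51 on array 1 and -2.71 on array 2. On array 1, 4.15% of all values were lower than that of Pou5f1, and on array 2, 0.630% were. Dppa3, also called Stella, is a chromatin protein of early germ cells and the oocyte that protects DNA methylation marks after fertilisation. It read -4.57 on array 1 and -3.79 on array 2, with the floor on array 3. Leaving out values at the floor, its ratio was the 44th lowest of array 1 and the 52nd lowest of array 2. Both values of Dppa3 were thus at the low end of their array, and those of Pou5f1 less so on array 1.

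In limma on arrays 1 and 2 alone, Dppa3 had a mean of -4.18 (95% interval -5.36 to -3.00, unadjusted p = 0.00409, adjusted p = 0.0611). Pou5f1 had -2.11 (interval -3.90 to -0.33, unadjusted p = 0.0363, adjusted p = 0.0994). Neither passed after adjustment, and 0 of 21461 probes did so in that fit, while 43.3% had an unadjusted p under 0.05, 22.6% above 0 and 20.7% below 0. Within these 2 arrays tissue and channel run together and cannot be told apart.

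Dazl and Ddx4, the later germ cell genes, were poorly measured. Dazl encodes an RNA-binding protein that licenses germ cells for gamete development. It read -2.50 on array 1, its single measured value, and was at the floor on arrays 2 and 3. Its value was one of the 8 at the floor on array 2. In limma on arrays 1 and 2 alone, its interval ran from -10.71 to 1.57 (adjusted p = 0.154). Ddx4, the mouse Vasa homologue and an RNA helicase of germ granules, read 1.05 on array 1 and -0.57 on array 2, with the floor on array 3. Its measured values had opposite signs, and its interval on arrays 1 and 2 was -2.17 to 2.65 (adjusted p = 0.756). No direction can be given for Ddx4.

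Markers of the genital ridge, the tissue into which germ cells settle, went in different directions. Nr5a1, the nuclear receptor of gonad and adrenal precursors, was lower in MM on 4 arrays (-1.68 ± 0.22, SD, n = 4, limma adjusted p = 0.00189). Emx2, a homeobox factor of the urogenital ridge, was higher (0.69 ± 0.36, adjusted p = 0.0116). Lhx9, a LIM homeobox factor of the early gonad, read 0.06 ± 0.15 (adjusted p = 0.504), and Gata4 read 1.81 and -5.36 on arrays 1 and 2. The part of gonadal tissue in the Pou5f1 and Dppa3 values was not tested.

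Kit, the receptor tyrosine kinase that germ cells need to survive and migrate, was lower in MM on every array by a small and repeatable amount. It read -0.44, -0.49, -0.40 and -0.43 on arrays 1 to 4. The 4 values spanned less than their distance from 0. Arrays 3 and 4 lay above arrays 1 and 2 by 0.05 on average (limma adjusted p of the orientation term 0.456). The mean was -0.44 ± 0.04 (SD, n = 4), that is 1.36-fold lower in MM, with a 95% interval of -0.52 to -0.36. The limma adjusted p was 0.00201 with the orientation term and 0.00673 without it.

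Kitl, the ligand of Kit, had probes above 0 on arrays 1 and 2. The first probe read 3.28 on array 1 and 3.50 on array 2. On array 1, 3.70% of values were higher than this, and on array 2, 4.74% were. The second probe read 1.20 and 0.49 on the same arrays and stood at the floor on array 3. Both probes thus lay on the MM side on arrays 1 and 2 but differed in size, and arrays 3 and 4 gave no measured value for either. In limma on arrays 1 and 2 alone the first probe had a mean of 3.39 (interval 2.98 to 3.80, unadjusted p = 0.00073, adjusted p = 0.0610). The second had 0.85 (interval -0.23 to 1.92, adjusted p = 0.146). Receptor and ligand therefore stood on opposite sides of 0 on arrays 1 and 2, where tissue and channel cannot be told apart. Of the 717 probes with the pattern of the second Kitl probe, 62.9% were above 0 on both of those arrays.

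Kit is also carried by melanoblasts, blood progenitors and mast cells, and markers of those cells were read beside it. Of 8 tested melanoblast and neural crest genes, 6 were lower in MM (1 of them at the floor on arrays 3 and 4), 1 was higher and 1 did not pass, with 1 lower and 0 higher in both fits. Over all tested probes, 38.1% were lower and 23.8% higher with the orientation term, and 14.4% and 13.6% in both fits. The lower gene called in both fits was Mitf, the master regulator of melanocytes, at -0.41 ± 0.14 on 1 of its 4 probes. The other Mitf probes, with 2 or 3 values each, lay on both sides of 0. Among further melanoblast markers, Dct was called lower with the orientation term alone and changed sign with orientation. It read 0.27, 0.04, -0.66 and -0.91 on arrays 1 to 4. Pmel read 0.05 ± 0.10 and was not called, and Sox10 read 1.07 and 0.44 on arrays 3 and 4 alone. Of 6 tested blood progenitor and mast cell genes, 4 were lower and 2 higher, with 1 and 2 in both fits. Cpa3, a mast cell protease, was lower at -0.43 ± 0.10, while Lmo2 and Cd34, which blood progenitors share with endothelium, were higher at 0.78 ± 0.36 and 0.79 ± 0.07. Gata2 (-0.18 ± 0.07) and Myb (-0.83, -0.95, 0.30 and -0.04 on arrays 1 to 4) were lower with the orientation term alone. Gata1 read -2.56 and 2.85 on arrays 1 and 2. Tal1 read -0.13 and -0.63 on those arrays and 0.01 on array 4. The medians were -0.27 for the first list and -0.24 for the second, against -0.08 over all tested probes. Their part in the Kit ratio was not tested.

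Signalling partners of Kit were called in both directions. Of 12 tested, 6 were higher and 6 lower, 1 of the lower ones at the floor on arrays 3 and 4. In both fits 2 were higher and 3 lower, and the median was -0.05. The shares over all tested probes were 23.8% higher and 38.1% lower, and 13.6% and 14.4% in both fits. Cbl, the ubiquitin ligase that removes activated receptors, was higher at 1.90 ± 0.97, and the kinase Akt1 was higher at 0.98 ± 0.10. The phosphatase Ptpn11 and the Ras activator Sos1 were lower at -0.48 ± 0.11 and -0.49 ± 0.18, and a second Ptpn11 probe, with values on arrays 1 and 2 alone, read 1.31 and 0.71.

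Alpl, the tissue-nonspecific alkaline phosphatase whose activity marks germ cells in stained embryos, ran opposite to Kit, Ifitm1, Ifitm2 and Ifitm3. The enzyme is also made in bone-forming cells, kidney and liver. It read 0.56, 2.54, 1.95 and 2.34 on arrays 1 to 4. All 4 values were above 0, with array 1 well below the other arrays. The mean was 1.85 ± 0.89 (SD, n = 4), or 3.60-fold higher in MM, and its 95% interval of 0.65 to 3.04 was the widest of the 5 tested probes. The limma adjusted p was 0.0276 with the orientation term and 0.0384 without it. Without array 3 the call was lost (adjusted p = 0.105), as it was when array 4 was left out instead (adjusted p = 0.123).

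Other alkaline phosphatase and phosphate genes gave little. Of 6 tested, 1 was higher in both fits, 1 was lower with the floor on arrays 3 and 4, and 4 did not pass. With the orientation term, 61.9% of all tested probes passed. The higher one was Slc20a1, a phosphate transporter (1.55 ± 0.57).

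**Figure D2:**
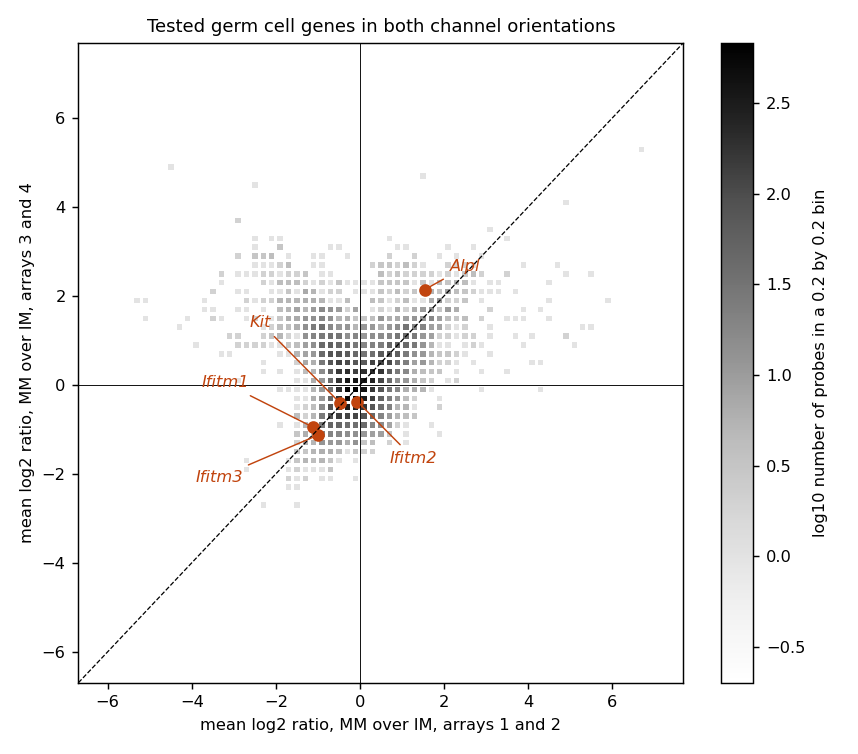
Mean log2 ratio of MM over IM on arrays 1 and 2 (x axis) against that on arrays 3 and 4 (y axis), with grey squares for the number of probes per bin over the 13191 probes with 4 values above the floor. Of the 5 tested germ cell genes (orange), Kit, Ifitm1, Ifitm2 and Ifitm3 lie below 0 and Alpl above 0 on both axes, and the dashed line marks equal values.

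The Ifitm genes encode small interferon-inducible membrane proteins, known as the Fragilis family in germ cell work. Ifitm1, Ifitm2 and Ifitm3 were lower in MM with the orientation term, and Ifitm1 and Ifitm3 in both fits. Ifitm1 and Ifitm3 had the largest differences of the 4 tested probes that were lower. A further member, Ifitm7, named after its values were seen, read -1.06, -0.59, 0.95 and 0.91 on arrays 1 to 4. It was not called (limma adjusted p = 0.681). Ifitm3, called Fragilis, is among the earliest marks of germ cell competence, and Ifitm1 has been tied to germ cell movement. Ifitm1 read -1.14, -1.09, -0.93 and -0.97 on arrays 1 to 4. Ifitm3 read -0.94, -1.05, -1.13 and -1.13. Every value of both genes lay near -1. Arrays 3 and 4 lay above arrays 1 and 2 by 0.16 on average for Ifitm1 (limma adjusted p of the orientation term 0.0959), and the difference was -0.13 for Ifitm3 (adjusted p = 0.193).

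Ifitm1 was 2.05-fold lower in MM (-1.03 ± 0.10, SD, n = 4, 95% interval -1.12 to -0.95). Its limma adjusted p was 0.000563 with the orientation term and 0.00275 without it. Ifitm3 was 2.09-fold lower (-1.06 ± 0.09, interval -1.16 to -0.96), with limma adjusted p-values of 0.000723 and 0.00259. Of all 14184 tested probes, 133 (0.938%) were called in both fits and at least 2-fold lower, and Ifitm1 and Ifitm3 were among them. Whether called or not, 1110 (7.83%) were at least 2-fold lower. Both genes lay close to that limit. With arrays centred on their medians the means were -0.972 for Ifitm1 and -0.999 for Ifitm3, just short of 2-fold.

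Ifitm2, the remaining Ifitm gene of the 10, was close to 0. It read -0.07, -0.05, -0.35 and -0.40 on arrays 1 to 4, with arrays 3 and 4 below arrays 1 and 2. The mean was -0.22 ± 0.18 (SD, n = 4), or 1.16-fold lower in MM. It passed with the orientation term (limma adjusted p = 0.00833) but not without it (adjusted p = 0.163), nor without array 4 (adjusted p = 0.0576), and its orientation term passed too (adjusted p = 0.0267). The ratio of Ifitm1 was below that of Ifitm2 on 4 of 4 arrays, by 0.58 to 1.07 log2 units (mean difference -0.82 ± 0.28). That of Ifitm3 was below it by 0.73 to 1.01 (mean difference -0.84 ± 0.12). The exact two-sided sign-flip permutation test gave p = 0.125 for each, the smallest p that 4 arrays allow.

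The 3 genes lie next to each other among the protein-coding genes of chromosome 7, in the order Ifitm2, Ifitm1, Ifitm3, with Ifitm5 beside Ifitm2. Ifitm5, a member of the family known from bone, read -0.24 ± 0.13 and passed with the orientation term alone (adjusted p = 0.0199, and 0.0761 without it). Of the 9 neighbours with 4 values, Ifitm5 among them, 3 were higher, 2 lower and 4 did not pass with the orientation term. In both fits 2 were higher and 0 lower. Over all tested probes, 23.8% were higher and 38.1% lower, and 13.6% and 14.4% in both fits. Psmd13, a proteasome subunit gene (0.80 ± 0.17), and Ptdss2, a phosphatidylserine synthase gene (1.22 ± 0.17), were higher in both fits. Nlrp6, an inflammasome gene (1.05 ± 0.61), was higher and Sirt3, a mitochondrial deacetylase gene (-0.20 ± 0.56), lower with the orientation term alone. Ifitm1 and Ifitm3 had the lowest means of the genes with 4 values in this stretch, which was picked by position. Ano9 read -1.44 and -1.08 on arrays 1 and 2 but 0.61 and 0.90 on arrays 3 and 4, and was not called. The neighbours named here were chosen after their values were seen.

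**Figure D3:**
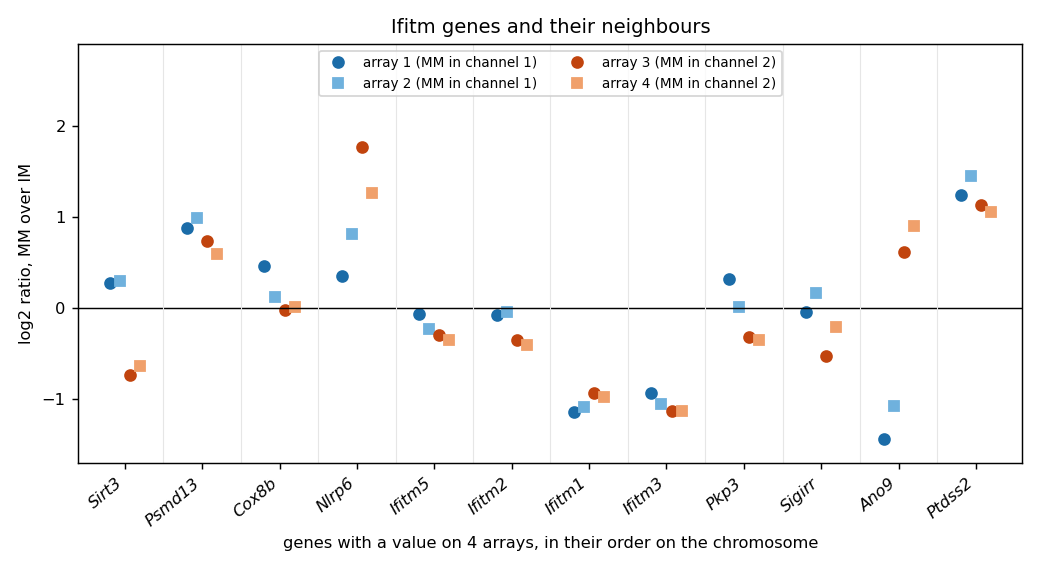
Log2 ratio of MM over IM (y axis) on each array for the Ifitm genes and their neighbours with 4 values, in their order on chromosome 7 (x axis). Ifitm1 and Ifitm3 lie near -1 on 4 arrays, and Ifitm5 and Ifitm2 between -0.40 and -0.05.

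The promoters of the 3 genes are shown because Ifitm1 and Ifitm3 had like ratios and Ifitm2 did not. Each sequence runs from 250 bases before to 50 bases after the start site, 5′ to 3′ on the gene's strand, from RefSeq on GRCm38.p6. Capitals mark matches to GAAA, any 2 bases and GAAA again, the core of the element by which interferon-activated factors bind DNA, searched on both strands. The regions are chr7:140967826-140968125 on the plus strand for Ifitm1, chr7:140955912-140956211 on the minus strand for Ifitm2 and chr7:141010695-141010994 on the minus strand for Ifitm3.
Ifitm1: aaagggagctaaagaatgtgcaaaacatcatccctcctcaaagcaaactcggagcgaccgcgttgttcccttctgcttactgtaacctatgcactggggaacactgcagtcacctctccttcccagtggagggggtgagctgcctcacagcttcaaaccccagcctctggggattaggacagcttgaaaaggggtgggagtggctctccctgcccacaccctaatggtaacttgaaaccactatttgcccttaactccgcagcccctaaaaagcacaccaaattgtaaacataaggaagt
Ifitm2: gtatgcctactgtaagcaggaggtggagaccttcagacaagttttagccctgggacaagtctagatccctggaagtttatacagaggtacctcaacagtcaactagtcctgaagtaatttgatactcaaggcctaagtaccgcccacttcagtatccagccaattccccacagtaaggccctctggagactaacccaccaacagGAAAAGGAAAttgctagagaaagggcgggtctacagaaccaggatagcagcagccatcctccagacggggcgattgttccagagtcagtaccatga
Ifitm3: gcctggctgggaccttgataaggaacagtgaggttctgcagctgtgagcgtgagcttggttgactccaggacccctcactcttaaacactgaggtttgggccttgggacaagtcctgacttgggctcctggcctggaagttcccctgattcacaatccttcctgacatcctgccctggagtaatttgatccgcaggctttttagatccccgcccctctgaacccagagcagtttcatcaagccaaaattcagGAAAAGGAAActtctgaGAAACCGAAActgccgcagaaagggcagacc
The Ifitm2 window held 1 match, at -46 to -37 from the start site, and the Ifitm3 window held 2, at 3 to 12 and 20 to 29. The first match of Ifitm3 has the same letters as that of Ifitm2, and the 2 matches of Ifitm3 do not overlap. The Ifitm1 window held 0. Of 32851 promoter windows of the same length, 3.44% held the motif.

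The genes of a list made for interferon-induced genes and Ifitm neighbours were called in both directions. Of 13 tested, 2 were higher, 4 lower and 7 did not pass, with 1 higher and 2 lower in both fits (median -0.15). All tested probes were 23.8% higher and 38.1% lower, and 13.6% and 14.4% in both fits. B2m, the light chain of class I histocompatibility molecules, was lower at -0.58 ± 0.15. Of the probes for Psmb8, an immunoproteasome subunit, one was lower (-0.33 ± 0.06) and the other read -0.13 ± 0.27 (adjusted p = 0.0836). Cd81, a tetraspanin, was the 1 called higher in both fits, at 1.20 ± 0.05. It was on the list but not among the genes of the chromosome 7 stretch above.

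Other genes of germ cell specification were called in both directions. Of 24 listed, 19 had a probe and 13 were tested, with 4 higher, 4 lower and 5 not past the threshold. In both fits 2 were higher and 2 lower. The shares over all tested probes were 23.8% higher and 38.1% lower, and 13.6% and 14.4% in both fits. Their median was 0.07, against -0.08 over all tested probes. Sox2, a pluripotency factor that mouse germ cells share with neural progenitors, was lower at -0.93 ± 0.04, and Tcl1, an Akt coactivator of pluripotent cells, was lower at -0.20 ± 0.06. Sall4, a zinc finger factor, and Lin28a, a microRNA-processing regulator, were higher at 2.44 ± 0.55 and 1.73 ± 0.58. Both are also expressed widely in the early embryo outside the germ line. Of the further fixed germ cell markers, Prdm1, the repressor that starts the germ cell programme, read 1.11, 0.85, -0.35 and 0.01 on arrays 1 to 4. Prdm1 was called higher with the orientation term alone (limma adjusted p = 0.0317, and 0.406 without it). Nanog, a pluripotency homeobox factor, read 0.18 ± 0.23 (adjusted p = 0.0738).

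Among genes for migration, survival and adhesion of germ cells, 20 of 23 had a probe and 15 were tested. Of these, 6 were higher (4 in both fits) and 2 were lower (1 in both fits and the other at the floor on arrays 3 and 4). A further 1 had a probe called in each direction and 6 missed the threshold, with a median of 0.17. Among all tested probes, 23.8% were higher and 38.1% lower, and 13.6% and 14.4% in both fits. Cxcr4, the chemokine receptor by which germ cells find the gonad, was higher on 4 arrays at 0.78 ± 0.02. Its ligand Cxcl12, named after its values were seen, read 0.01 ± 0.16 (adjusted p = 0.938). Gja1, the gap junction protein connexin 43, was higher at 2.42 ± 0.18, and Fgfr2, a fibroblast growth factor receptor, at 0.99 ± 0.24. The probes of Tial1, an RNA-binding protein needed for germ cell survival, disagreed at 1.16 ± 0.37 and -0.28 ± 0.09.

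Of 34 later germ cell and meiosis genes, 29 had a probe and 15 were tested. Of these, 2 were higher and 6 lower, 1 of the lower ones at the floor on arrays 3 and 4, and 7 did not pass. In both fits 2 were higher and 2 lower, and the median was -0.14. The shares over all tested probes were 23.8% higher and 38.1% lower, and 13.6% and 14.4% in both fits. Dppa4, a chromatin-associated factor of pluripotent and germ cells, was lower at -0.80 ± 0.19, and Rnf17, a Tudor-domain protein of male germ cells, at -0.38 ± 0.11. Tdrd1, another Tudor-domain protein of germ granules, was higher at 0.84 ± 0.05, and Sycp3, of the meiotic chromosome axis, at 0.94 ± 0.10. A further 10 probes of this list had values on arrays 1 and 2 alone, of which 3 were above 0 on both, 4 below 0 on both and 3 of opposite signs. Germ cell genes beyond the 10 thus stood on both sides of 0, also among those called in both fits.

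**Figure D4:**
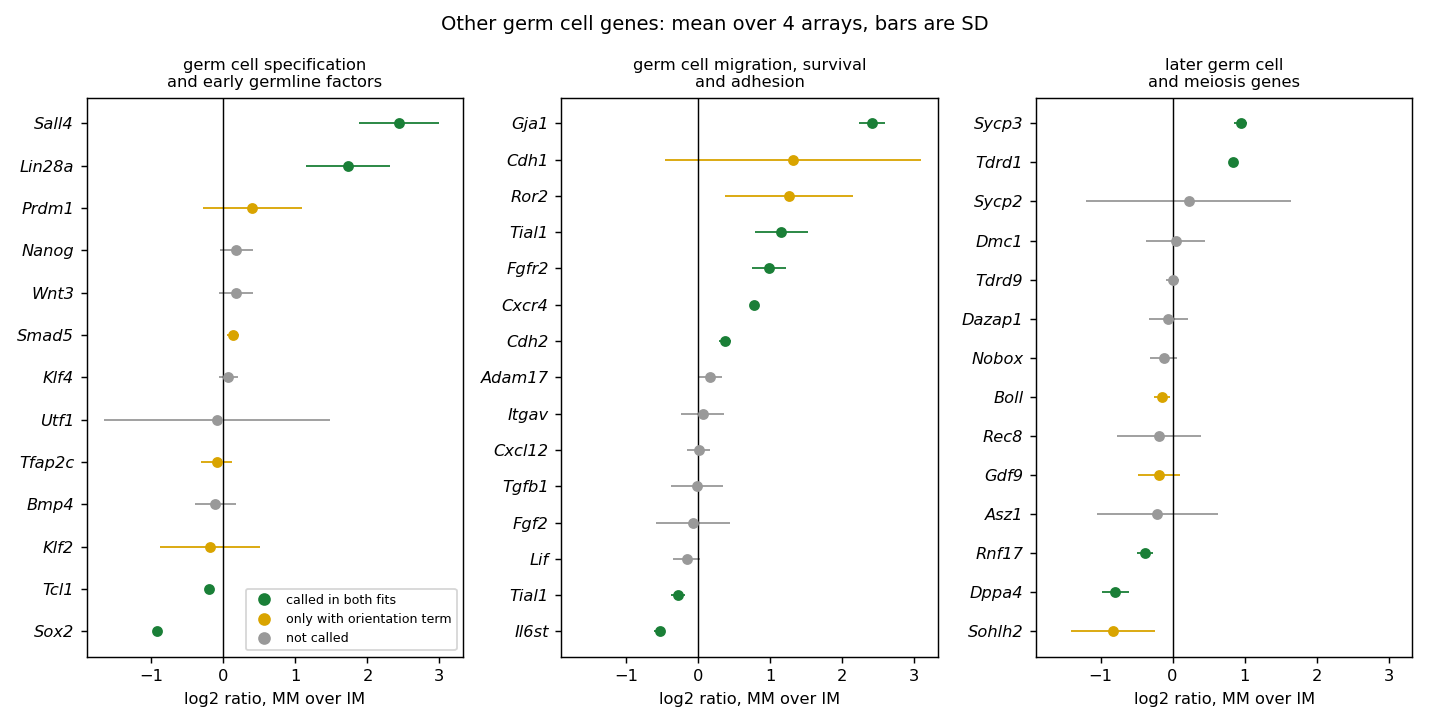
Mean log2 ratio of MM over IM (x axis, bars are SD over 4 arrays) for the probes of 3 germ cell lists with 4 values above the floor, in rows by gene. Green probes passed in both fits, yellow ones only with the orientation term and grey ones in neither. Each panel holds green probes on both sides of 0, with Sall4 and Gja1 farthest to the right.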

How the data were processed

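Each of the 4 arrays has 1 column of log2 ratios as deposited by the authors. Per the labels' protocols, Imagene 5.5 quantified the spots, both channels were exchanged for arrays 3 and 4, and the control value was adjusted by lowess (20.0% of the data per point) with a lower limit of 10. Neither background correction nor spot filters are described in the labels. Intensities are not in the table. Their absence, the number of arrays, the floor values, the missing values and the low correlation between orientations all limit the precision that can be stated.

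Of 22702 probes, 14184 had 4 values. Their ratios were fitted with limma 3.58.1 (R 4.3.3) on an intercept, the tissue difference, and the channel orientation, and again on the intercept alone. Benjamini-Hochberg adjustment ran over all tested probes, with a threshold of 0.05, and the fit was tested on simulated data. With 4 arrays an exact sign-flip test cannot go below p = 0.125. Probes were named from the platform annotation, with symbols updated by gene ID through a RefSeq table of GRCm38.p6, where 16566 of 17252 probes with 1 symbol matched. Promoters are from RefSeq, and 9 of the 10 genes had one. All probes of the 10 genes were named, and from each of 8 context lists up to 4 genes called in both fits with the smallest p. The genes and lists were chosen with earlier results of these data known. Alternatives left out the orientation term, an orientation, an array or probes at the floor, averaged each orientation, centred arrays, weighted arrays, admitted 3 values, or used a trended robust prior.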

Additional observations from a re-analysis of the deposited data

Results flagged for a closer look

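Over 30 probes tested for a stray array (the 5 tested germ cell probes and the context genes named), 1 stood out. Of the Psmb8 probe called lower, array 3 read -0.23 and the other arrays -0.36, -0.36 and -0.35, so that the gap to the nearest array was 0.890 of the whole range. Chance alone gives such a gap in about 1 of 20 probes, so 1 among 30 tested is no more than chance would give.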

How the results depend on the processing

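The 8779 calls over the table became 3968 without the orientation term, and leaving out 1 array gave 5808 to 6782, with 5808 without array 3 and 5848 without array 4. Of the 5 tested germ cell probes, 3 to 5 stayed past the threshold when 1 array was left out. On arrays 1 and 2 alone limma called 0 of 21461 probes and 0 of 11 germ cell probes (9294 and 6 had an unadjusted p under 0.05). With each orientation averaged to 1 value it called 0 and 0 (1526 and 3 at an unadjusted p under 0.05). With 3 or more values, 8 of 9 germ cell probes passed, beside 9719 of 17369 probes (56.0%) over the table. The added Dppa3 (-5.41), Ddx4 (-3.20) and second Kitl probe (-2.90) rest on the floor of array 3, and that Kitl probe was above 0 on arrays 1 and 2. No tested germ cell probe changed sign under any of 13 alternatives. Kit, Ifitm1 and Ifitm3 each lost the call under 2 of them (arrays 1 and 2 alone, and averaged orientations), and Alpl and Ifitm2 under 4 each. Each array is a direct comparison of both tissues, so its ratio already pairs them, and no replicate numbers allow further pairing. With 4 arrays and no intensities, weak spots cannot be told from strong ones.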

Other observations

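The promoter windows of the germ cell genes differed in their count of CpG dinucleotides. The Ddx4 window held 38 in 300 bases and that of Dazl 28, as did that of Kitl, against a median of 7 over 32851 windows, of which 4.95% held at least 38. The windows of Ifitm1, Ifitm2 and Ifitm3 held 5, 4 and 5. These are counts from the reference sequence, and methylation was not measured.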
